A study of Mus musculus with 10 samples.

Results

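The integrin, laminin and nidogen genes were followed through reprogramming of mouse embryonic fibroblasts toward induced pluripotency. Members were found by symbol, under a rule chosen with earlier results of these data known. They are the genes whose symbol begins with Itga, Itgb, Lama, Lamb, Lamc or Nid followed by the subunit number or letter and that have a protein-coding transcript, without the binding proteins and the integrin-like gene that share these letters. This rule found 40 of the 45706 genes in the deposited tables: 18 integrin α subunits, 9 integrin β subunits, 11 laminin chains and 2 nidogens. Of these, 37 had enough reads to be tested, and Itgax, Itgad and Itgb2l did not.

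Poly(A) RNA was measured in 5 groups with 2 libraries each, from cells of mixed C57BL/6 and 129 background. Uninduced fibroblasts (MEF), day 3, day 6 and day 9 cells all carried a polycistronic OKSM cassette (Oct4, Klf4, Sox2 and Myc) in the Col1a1 locus and the transactivator M2rtTA in the ROSA26 locus. MEF were grown in fibroblast medium without doxycycline, and the induced cells in stem cell medium with doxycycline at 1 µg/ml and ascorbic acid at 50 µg/ml, so the medium, ascorbic acid and factor induction cannot be told apart between MEF and day 3. Day 3 cells were unsorted, and the later induced cells (day 6, day 9) had been selected for SSEA1, a carbohydrate on the surface of early pluripotent cells, so time and sorting cannot be told apart between day 3 and day 6. Embryonic stem cells (ESC) were of the single line V6.5, which carries neither transgene by its label, and grew unsorted on irradiated feeder cells with LIF. ESC are thus a separate line and not a later stage of the induced cells. Line, transgenes, sorting and culture cannot be told apart between ESC and day 9. Primary fibroblast cultures are mixtures of cells, and the labels do not say whether feeder cells were removed before RNA was taken from ESC. The series describes its replicates as biological without saying which cultures or animals they came from, so p-values measure the spread between these libraries.

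Laminins are trimers of an α, a β and a γ chain that polymerise into the sheet of the basement membrane, and nidogens link that sheet to the network of type IV collagen. Integrins are receptors made of an α and a β subunit that connect matrix proteins to the cytoskeleton, and the α subunit largely sets which ligand is bound. Receptors for fibrillar collagen and fibronectin are typical of fibroblasts but not confined to them, and laminin is a substrate of epithelial and pluripotent cells.

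Libraries held 29585876 to 38275024 estimated reads, and all carried the same batch label. Values are reads scaled to a common library total and given as CPM on the TMM scale of edgeR, and a gene was called when its Benjamini-Hochberg adjusted p was under 0.05 and its log2 fold change was at least 1 in size. The words rose and fell are used for called changes. The 14 fibroblast markers summed to 55911 to 57643 CPM in MEF, 5016 to 5055 at day 3, 337 to 354 at day 6, 135 to 147 at day 9, with 5242 to 5427 in ESC, and of them only Lum was at 0 reads, at day 9. The 9 pluripotency markers summed to 2.03 to 2.65 CPM in MEF, 383 to 384 at day 9 and 4084 to 4143 in ESC. MEF and ESC thus carried the markers of their labels, and the ESC libraries also held RNA of fibroblast genes.

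The members' share of all estimated reads was 0.594% and 0.593% in the pair of MEF libraries, 0.656% and 0.675% at day 3, 0.450% and 0.444% at day 6, 0.397% and 0.4% at day 9, with 0.375% and 0.374% in ESC. The groups did not overlap, and day 3 was highest. Among the 37 tested genes, 13 had their highest group mean in MEF, 9 at day 3, none at day 6, 8 at day 9 and 7 in ESC. The lowest mean lay in MEF for 9, at day 3 for 4, at day 6 for 7, at day 9 for 11 and in ESC for 6. In bulk RNA, fewer cells of a type and less RNA per cell cannot be told apart.

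Between MEF and day 3, 8 of the 37 rose, 13 fell and 16 were not called, where 14.6% of all 20165 tested genes were called higher and 14.5% lower (29.1% in either direction). From day 3 to day 6, 7 rose and 16 fell, against 9.26% and 10.2% of all genes (19.5% in either direction). The step from day 6 to day 9 was smaller, with 4 higher and 5 lower, against 5.18% and 2.68% (7.87% in either direction). Those last counts were smaller in some fits that left out 1 library of day 6 or day 9. Their ranges are given at the end beside the shares of all genes.

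ESC differed from day 9 in 18 genes called higher and 9 called lower, against 18.6% and 14.3% of all genes (32.9% in either direction). ESC differed from MEF in 12 higher and 16 lower, against 25.5% and 20.6% (46.1% in either direction). Day 9 differed from MEF in 9 higher and 20 lower, against 24.1% and 19.8% (43.9% in either direction). In each of the 6 comparisons the share of members called in either direction was above that of all genes. For day 9 with MEF this excess lay among genes called lower, and the share of members called higher was close to that of all genes. The comparisons share libraries and are not independent of each other.

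The members' median log2 fold change was 0.09 for day 3 with MEF, -0.94 for day 6 with day 3, -0.11 for day 9 with day 6 and 1.23 for ESC with day 9. All tested genes had medians of 0.08, 0.03, 0.00 and 0.00 in the same order. Against MEF the members' median was -1.20 at day 9 and -0.81 in ESC, beside 0.19 and 0.10 for all genes. The members' median was thus lower than that of all genes at day 6 and at day 9 and higher for ESC with day 9. Of the 37, 36 were called in at least 1 comparison, and Lamc1 was called in none. Below, called members with a group mean of at least 20 CPM are given library by library, together with Lamc1, and the 13 tested members under that level by their range.

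**Figure D1:**
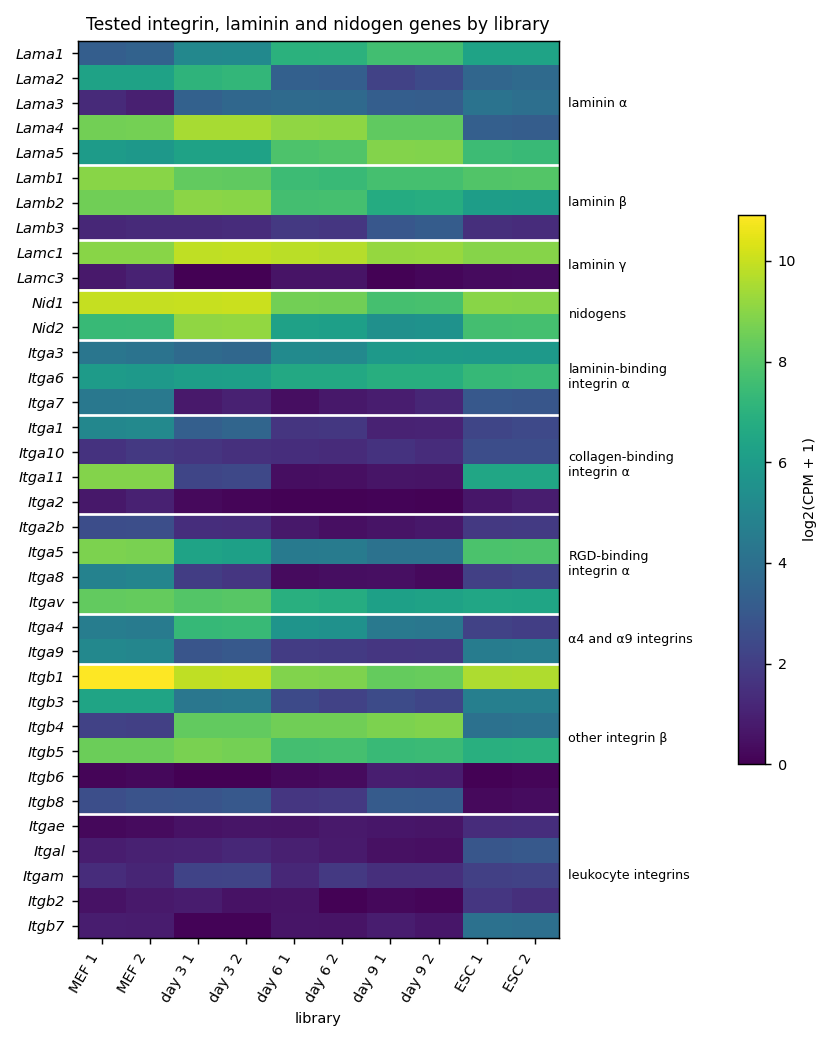
Log2(CPM + 1) of tested genes (rows, grouped by role) in the 10 libraries (columns, in the order MEF, day 3, day 6, day 9 and ESC). Itga11 goes from bright in MEF to dark at day 6 and day 9, Itgb4 is bright from day 3 to day 9, and Lama4 is dark in ESC.

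The laminin α chains carry the domains that integrins bind, and between MEF and day 9, 3 of the 5 rose, 1 fell and 1 was not called, where 24.1% of all tested genes rose and 19.8% fell. Lama4, the α chain of vessel walls and mesenchymal tissue (chr10:38965515-39110188, plus strand, GRCm38), was at 386 and 400.4 CPM in the MEF libraries, 710.0 and 719.8 at day 3, 558 and 540.3 at day 6, 302 and 302 at day 9, with 9.01 and 8.33 in ESC. It was high in all fibroblast-derived groups with its peak at day 3, and ESC lay far below every other library. Lama4 in ESC was under day 9 (log2 fold change -5.12 ± 0.05 SE, edgeR adjusted p = 6.8e-18) and under MEF (-5.50 ± 0.05), whereas day 3 with MEF missed the fold threshold (log2 fold change 0.86 ± 0.03 SE, edgeR adjusted p = 1.1e-11).

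Lama5, the α chain of most epithelial basement membranes and of the matrix made by pluripotent cells (chr2:180176373-180225859, minus strand), was at 63.3 and 56.2 CPM in the MEF libraries, 78.1 and 77.9 at day 3, 233 and 249 at day 6, 468 and 464 at day 9, with 179 and 168 in ESC. MEF and day 3 were low, day 9 was highest, and ESC lay between day 3 and day 6. Lama5 rose from day 3 to day 6 (log2 fold change 1.63 ± 0.05 SE, edgeR adjusted p = 2.3e-12) and was 7.82-fold higher at day 9 than in MEF (2.97 ± 0.05). ESC was below day 9 (-1.42 ± 0.05) and above MEF (1.54 ± 0.05).

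Lama1, the α chain of the first embryonic basement membranes (chr17:67697259-67822647, plus strand), was at 8.50 and 9.91 CPM in the MEF libraries, 33.5 and 35.5 at day 3, 124 and 127 at day 6, 194 and 193 at day 9, with 79.5 and 79.6 in ESC. Its level was higher at each stage up to day 9, and ESC lay between day 3 and day 6, with no overlap between groups. Lama1 rose at day 3 (log2 fold change 1.90 ± 0.06 SE, edgeR adjusted p = 3.6e-12) and again at day 6 (1.87 ± 0.05), and was lower in ESC than at day 9 (-1.28 ± 0.04). With limma on log2(TPM + 1), the calls at day 3 (0.91) and in ESC with day 9 (-0.97) were lost.

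Lama2, the α chain of the membrane around muscle fibres and Schwann cells, was at 77.3 and 77.8 CPM in the MEF libraries, 137 and 148 at day 3, 9.23 and 8.47 at day 6, 3.50 and 4.42 at day 9, with 11.1 and 12.6 in ESC. Day 3 was highest and day 9 lowest, and ESC lay above day 9 but below MEF. The fall from day 3 to day 6 was large (log2 fold change -4.01 ± 0.07 SE, edgeR adjusted p = 1.4e-14). Lama3, the epithelial α chain, stayed under 20 CPM in every library and ranged from 0.945 CPM in MEF to 17.1 CPM in ESC. It rose at day 3 (log2 fold change 3.12 ± 0.17 SE, edgeR adjusted p = 8.6e-10) and was also called higher in ESC than in MEF (3.75 ± 0.17).

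The Lama3 reads were divided between a long transcript of 10548 bases and a short one of 5551 bases, both protein-coding. The short transcript held 53.6 and 33.5% of its gene's estimated reads in the MEF libraries, 47.6 and 47.5% at day 3, 26.8 and 37.5% at day 6, 50.6 and 44.6% at day 9, with 94.0 and 94.9% in ESC. ESC stood apart from the other 8 libraries, which overlapped between groups. These shares rest on 31 to 580 reads per library, and the deposited tables give no uncertainty of the split between transcripts, so it was not tested.

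The make-up of the α chains changed with these levels. Levels of different genes were compared per length, as TPM, the deposited length-scaled values. Of the summed TPM of the 5 α chains, Lama4 made up 81.6% in MEF, 84.6% at day 3, 64.4% at day 6, 34.2% at day 9, with 2.66% in ESC. Lama5 made up 13.0% in MEF, 9.56% at day 3, 30.6% at day 6, 59.7% at day 9, with 83.5% in ESC. The leading chain therefore changed from Lama4 to Lama5, but the shares depended on the length scaling. With CPM per kilobase of the longest protein-coding transcript, a setting chosen after seeing the data, Lama5 made up 6.50%, 4.66%, 16.4%, 36.0% and 54.7% in the same order. Lama4 was then at 44.9% at day 9, ahead of Lama5. Lama1 made up 30.1% in ESC on that scale, against 9.30% by TPM. In MEF, at day 3, at day 6 and in ESC the leading α chain was the same on both scales.

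Of the α chains that rose by day 9, Lama1 rose most from MEF (log2 fold change 4.39), and Lama5 (2.97) had the highest level. The upstream 250 bases of the Lama5 start are shown for that level, beside those of Itga5, a fibronectin receptor described below that fell. They are from RefSeq on GRCm38.p6, both genes on the minus strand, at chr2:180225860-180226109 and chr15:103366792-103367041, and capitals mark the GC box GGGCGG on either strand.
Lama5 promoter: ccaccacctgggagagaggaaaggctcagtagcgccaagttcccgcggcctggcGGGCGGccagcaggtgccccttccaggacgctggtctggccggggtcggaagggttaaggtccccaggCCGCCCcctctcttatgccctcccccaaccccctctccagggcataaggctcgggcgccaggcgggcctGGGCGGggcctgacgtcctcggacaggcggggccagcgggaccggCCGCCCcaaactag
Itga5 promoter: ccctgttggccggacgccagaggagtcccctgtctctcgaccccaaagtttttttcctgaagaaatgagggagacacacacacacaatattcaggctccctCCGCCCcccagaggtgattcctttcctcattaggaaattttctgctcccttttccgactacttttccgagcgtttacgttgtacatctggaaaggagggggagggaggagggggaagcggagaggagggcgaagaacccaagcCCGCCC

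The Lama5 window held 4 GC boxes and the Itga5 window 2. The GC box was in 10 of the 28 promoters found for 25 members and in 32.7% of all 32851 promoters of this length. The KLF pattern GGGNGTGG, searched because the series is about KLF4, was in 8 of the 28 and in 15.9% of all. An AP-1 pattern, TGANTCA, was in 1 of the 28 and in 6.7% of all, and a TEAD pattern, GGAATG, in 4 of the 28 and in 12.6% of all. All were searched on both strands, the KLF pattern and the GC box can overlap each other, and neither sequence shown holds a KLF, AP-1 or TEAD match. The window of Itga11, a collagen receptor described below, was also scanned but is not shown. It held 1 KLF match and no AP-1, TEAD or GC box match. A match is a run of letters and not evidence of binding.

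**Figure D2:**
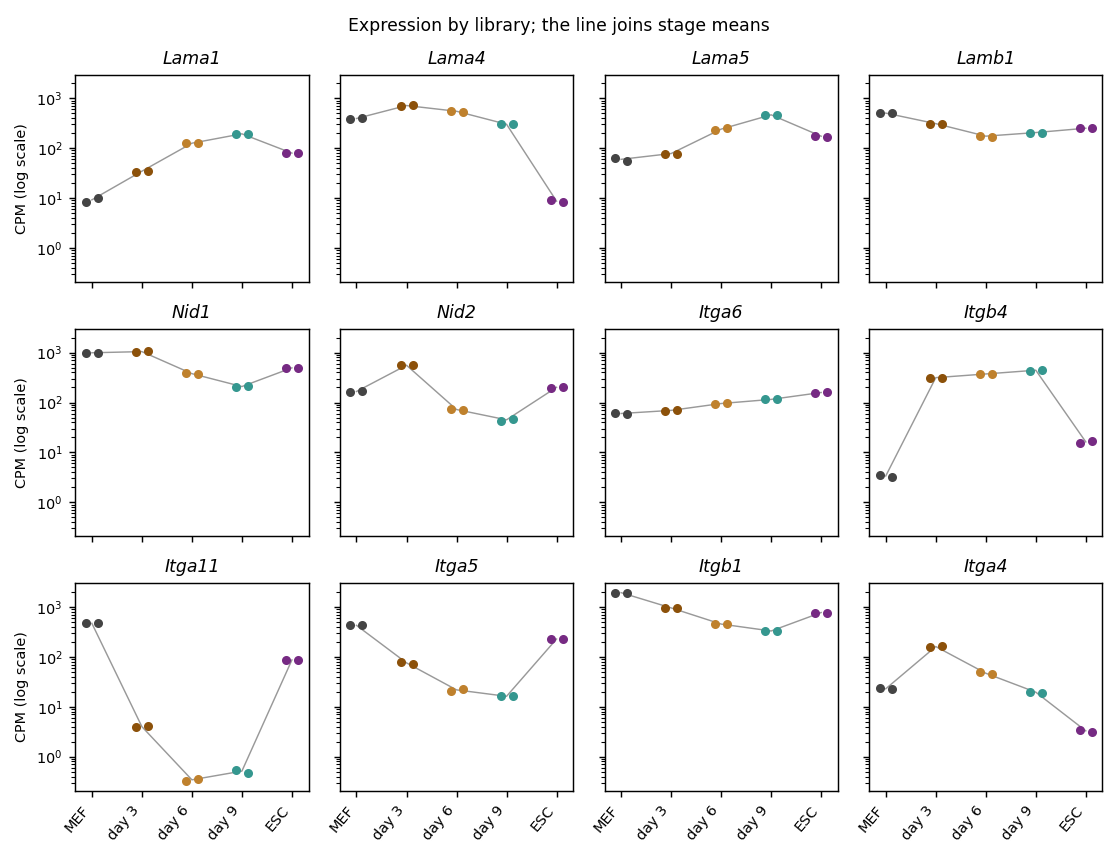
CPM of 12 members by library on a log axis, with 1 panel per gene, 2 points per stage and a line joining stage means. Lama5 and Lama1 climb to day 9, and Itgb4 jumps at day 3. Itga11, Itga5 and Itgb1 descend to day 6 or day 9 and are higher in ESC than at day 9.

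The β chains were lower at day 9 than in MEF for the abundant pair. Lamb1, the β chain of early and most later basement membranes, was at 506 and 503 CPM in the MEF libraries, 312 and 308 at day 3, 179 and 169 at day 6, 206 and 205 at day 9, with 250.1 and 252 in ESC. MEF was highest, and day 6 was lowest. Lamb1 fell between MEF and day 9 (log2 fold change -1.30 ± 0.03 SE, edgeR adjusted p = 7e-14), and its call in ESC with MEF (-1.01 ± 0.03) sat at the fold threshold and was lost with library-size scaling (-0.67) and narrowly in both limma fits (-0.95 and -0.97).

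Lamb2, the β chain of kidney, muscle and nerve membranes, was at 378 and 373 CPM in the MEF libraries, 512 and 505 at day 3, 204 and 209 at day 6, 106 and 112 at day 9, with 65.6 and 65.3 in ESC. Day 3 was highest, day 6 and day 9 were each lower, and ESC was lowest. It fell from day 3 to day 6 (log2 fold change -1.30 ± 0.03 SE, edgeR adjusted p = 3.4e-13) and was 5.74-fold lower in ESC than in MEF (-2.52 ± 0.04). Which β chain led depended on the length scaling in MEF and at day 9: Lamb2 by TPM (62.4% and 54.0% of the β chains), Lamb1 by CPM per kilobase (56.5% and 63.0%). Lamb2 led at day 3 and day 6 and Lamb1 in ESC on both scales.

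Lamb3, the epithelial β chain, was low throughout, at 6.81 and 7.93 CPM at day 9 and at most 2.47 CPM in any other library. It was nonetheless called higher at day 9 than at day 6 (log2 fold change 1.61 ± 0.18 SE, edgeR adjusted p = 5.8e-06).

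Among the γ chains, Lamc1, the γ chain of nearly all basement membranes, was at 504 and 509 CPM in the MEF libraries, 935 and 960.3 at day 3, 877 and 835 at day 6, 591 and 597 at day 9, with 488 and 489 in ESC. Day 3 and day 6 were high, and MEF and ESC were close to each other. It was the member called in no comparison, since the difference of day 3 from MEF stayed under the fold threshold (log2 fold change 0.90 ± 0.03 SE, edgeR adjusted p = 4.8e-12). Lamc3 reached at most 1.04 CPM in any library.

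**Figure D3:**
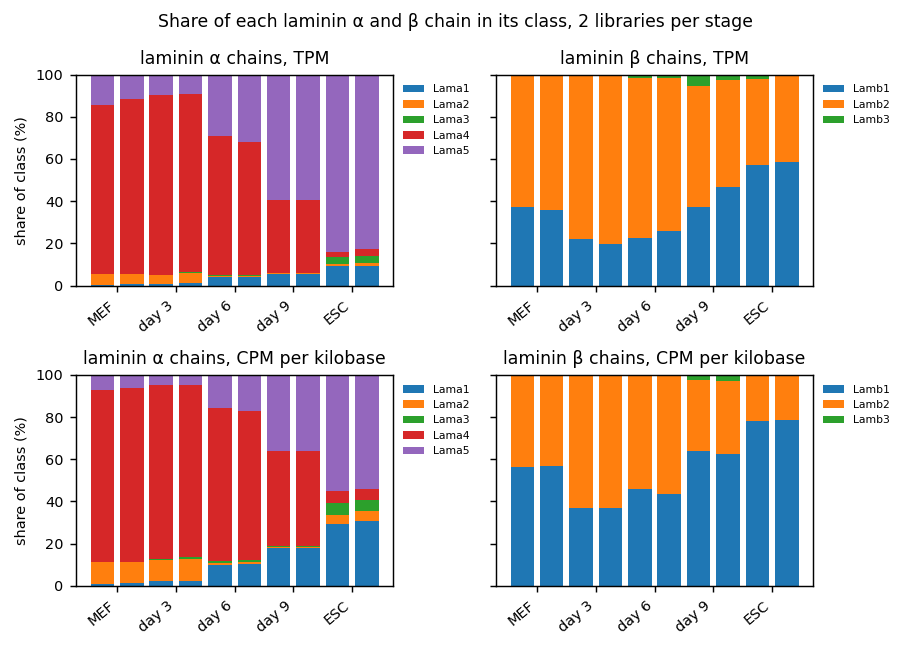
Share of each laminin α and β chain in the summed level of its class (%), for the 2 libraries of each stage, by TPM (upper panels) and by CPM per kilobase (lower panels). Lama4 gives way to Lama5 among the α chains, by day 9 on the TPM scale and in ESC on both, whereas the order of Lamb1 and Lamb2 differs between the scales in MEF and at day 9.

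Both nidogens fell between MEF and day 9 and were higher in ESC than at day 9. Nid1, the main nidogen, was at 998 and 988 CPM in the MEF libraries, 1030.3 and 1066 at day 3, 384 and 374 at day 6, 207 and 211 at day 9, with 499 and 492 in ESC. MEF and day 3 were alike and high, day 9 was lowest, and ESC lay between day 6 and MEF. Nid1 fell from day 3 to day 6 (log2 fold change -1.47 ± 0.03 SE, edgeR adjusted p = 4.6e-14) and was higher in ESC than at day 9 (log2 fold change 1.25 ± 0.03 SE, edgeR adjusted p = 1.3e-13). Its call in ESC with MEF (-1.0 ± 0.03) was lost with library-size scaling (-0.66) and in both limma fits (-0.91 and -0.92).

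Nid2, the nidogen enriched in vessel walls, was at 165 and 168 CPM in the MEF libraries, 555 and 563 at day 3, 74.3 and 70.4 at day 6, 43.6 and 46.4 at day 9, with 199 and 205 in ESC. Day 3 stood above every other group, and day 9 was lowest. Nid2 rose at day 3 (log2 fold change 1.75 ± 0.04 SE, edgeR adjusted p = 1.7e-14) and fell at day 6 (log2 fold change -2.95 ± 0.04 SE, edgeR adjusted p = 5.2e-16). It was higher in ESC than at day 9 (log2 fold change 2.16 ± 0.04 SE, edgeR adjusted p = 6e-15). The summed level of the nidogens was 94.9 TPM in MEF, 141 at day 3, 37.5 at day 6, 19.9 at day 9, with 62.4 in ESC.

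Between MEF and day 9, 1 of the 3 laminin-binding α subunits rose (Itga3), 1 fell (Itga7) and 1 was not called (Itga6), and 3 of the 4 collagen-binding and all 4 RGD-binding α subunits fell. Of all tested genes, 24.1% rose and 19.8% fell in that comparison. Itgb4, the β subunit that pairs with Itga6 and anchors epithelial cells at hemidesmosomes (chr11:115974709-116008412, plus strand), was at 3.51 and 3.23 CPM in the MEF libraries, 314 and 316 at day 3, 371 and 376 at day 6, 431 and 457 at day 9, with 15.7 and 16.8 in ESC. MEF was low, the day 3, day 6 and day 9 libraries formed a high plateau, and ESC was low, though above MEF. Itgb4 rose 93.7-fold at day 3 (log2 fold change 6.55 ± 0.06 SE, edgeR adjusted p = 6e-18), the largest rise of any member in that comparison. In ESC it was below day 9 (log2 fold change -4.77 ± 0.05 SE, edgeR adjusted p = 1.1e-17) and above MEF (2.27 ± 0.09).

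The day 3 cells were unsorted, and the part of sorting in the day 6 and day 9 levels of Itgb4 was not tested. Of the summed TPM of the 9 β subunits, Itgb4 made up 0.0757% in MEF, 12.2% at day 3, 26.6% at day 6, 36.1% at day 9, with 1.92% in ESC. By CPM per kilobase it made up 32.5% at day 9. Its share followed a course opposite to that of Itgb1, the common partner of most α subunits, which made up 60.2% in MEF, 34.6% at day 3, 26.5% at day 6, 22.7% at day 9, with 61.8% in ESC. Both are parts of the same sum, so the shares are not independent of each other. By CPM per kilobase Itgb1 made up 79.4%, 57.3%, 48.6%, 40.4% and 79.4% in the same order and led the β subunits in every group. By TPM, Itgb5 led at day 3 (52.7%), day 6 (46.5%) and day 9 (40.7%), so the leading β subunit of the induced groups depended on the length scaling.

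Itga6, the laminin receptor subunit used as a stem cell surface marker (chr2:71745616-71858416, plus strand), was at 62.4 and 58.0 CPM in the MEF libraries, 68.3 and 70.8 at day 3, 95.1 and 95.8 at day 6, 116 and 115 at day 9, with 156 and 161 in ESC. In CPM the groups ascended in the order MEF, day 3, day 6, day 9 and ESC, with no overlap between groups. No difference between neighbouring groups passed the fold threshold. By TPM this order did not hold. Day 3 (19.4 and 18.6 TPM) lay below MEF (20.2 and 20.8), and day 6 (23.2 and 25.0) overlapped day 9 (24.3 and 23.4). ESC with MEF was called (log2 fold change 1.40 ± 0.04 SE, edgeR adjusted p = 3.6e-13), a call that limma did not make on log2(TPM + 1), at 0.57, or on log2(TPM + 0.1), at 0.59. Of the summed TPM of the α subunits, Itga6 made up 9.73% in MEF, 18.2% at day 3, 41.7% at day 6, 46.8% at day 9, with 29.2% in ESC. Its own mean was 20.5 TPM in MEF and 23.8 at day 9, while that sum was 211 and 51.0. By CPM per kilobase Itga6 made up 5.03%, 17.1%, 38.9%, 46.9% and 26.1% in the same order. In ESC Itga5 led on that scale (36.9%), whereas Itga6 led by TPM.

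Itga6 has a long known pair of cytoplasmic tails that differ by an alternative exon near the 3′ end of the coding sequence. The exon is the 130 bases at chr2:71853534-71853663 on the plus strand (GRCm38, GENCODE M21). It is present in Itga6-001 and skipped in Itga6-002, which are protein-coding transcripts of 4310 and 4156 bases that also differ in their first exon and ends. Its coding part is shown with the stop codon in capitals, since that stop ends the shorter tail.
Itga6 alternative exon: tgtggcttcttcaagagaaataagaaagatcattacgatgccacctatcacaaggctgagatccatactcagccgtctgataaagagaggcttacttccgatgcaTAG

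Of the estimated reads on these 2 transcripts, the one with the exon held 100 and 100% in the MEF libraries (of 885 and 898 reads) and 100 and 100% at day 3. It held 42.3 and 43.9% at day 6, 56.2 and 80.5% at day 9, and 4.8 and 8.6% in ESC. MEF and day 3 held only the form with the exon in this estimate, ESC held mostly the form without it, and day 6 and day 9 lay between. The day 9 libraries differed widely from each other, and both lay above day 6, so the share did not move in 1 direction with time.

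A further transcript, Itga6-005, which is annotated as not coding, took 38.5 and 40.1% of the gene's reads in MEF and 44.8 and 44.2% in ESC, and a short one, Itga6-009 of 443 bases, took 8.0 and 9.7% and 1.4 and 1.5%. The split rests on single reads of 50 bases, and the tables give no uncertainty for it, so it is given as a description with no test.

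**Figure D4:**
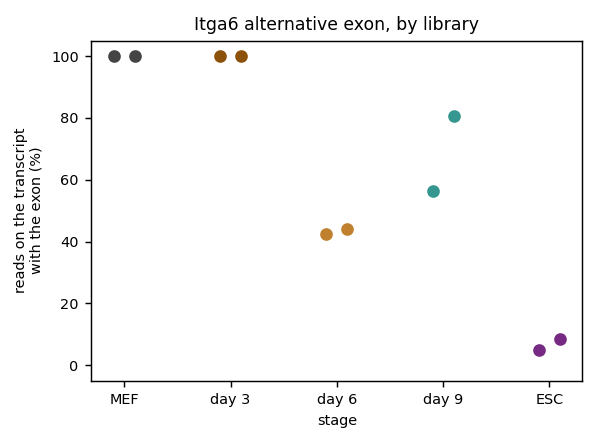
Percent of the estimated reads on the Itga6 transcripts with and without the alternative exon that fell on the one with it, by library. MEF and day 3 are at 100%, day 6 is near 43%, day 9 is at 56.2 and 80.5%, and ESC is at 4.8 and 8.6%.

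Itga3, the receptor subunit for Lama5- and Lama3-containing laminins, was at 18.2 and 16.8 CPM in the MEF libraries, 12.7 and 11.7 at day 3, 36.7 and 34.1 at day 6, 59.7 and 60 at day 9, with 59.4 and 58.9 in ESC. Day 3 was lowest, and day 9 and ESC were highest and close to each other. Itga3 rose from day 3 to day 6 (log2 fold change 1.53 ± 0.06 SE, edgeR adjusted p = 5.9e-11) and was above MEF at day 9 (1.78 ± 0.06) and in ESC (1.76 ± 0.06). Itga7, the muscle laminin receptor, was at 19.8 and 20.4 CPM in the MEF libraries, 0.700 and 0.975 at day 3, 0.323 and 0.605 at day 6, 0.836 and 1.29 at day 9, with 7.10 and 6.54 in ESC. MEF was highest, ESC came next, and the induced groups were near 1 CPM. It fell at day 3 (log2 fold change -4.59 ± 0.20 SE, edgeR adjusted p = 7.5e-11), and its call from day 6 to day 9 (log2 fold change 1.22 ± 0.32 SE, edgeR adjusted p = 0.0078) was lost without day 6 replicate 1 (0.83) and without day 9 replicate 2 (0.85), and in both limma fits (0.09 and 0.50).

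Of the 4 subunits that bind collagen, 2 were lower in ESC than in MEF and 1 was higher, where 20.6% and 25.5% of all genes were. Itga11, the receptor for fibrillar collagen of fibroblasts (chr9:62677826-62783982, plus strand), was at 472 and 469 CPM in the MEF libraries, 3.88 and 4.11 at day 3, 0.323 and 0.363 at day 6, 0.546 and 0.480 at day 9, with 86.9 and 86.7 in ESC. MEF was far above all other groups, the induced groups were at a few CPM or less, and ESC stood between. Itga11 fell at day 3 (log2 fold change -6.88 ± 0.05 SE, edgeR adjusted p = 9.8e-19) and further at day 6 (log2 fold change -3.53 ± 0.16 SE, edgeR adjusted p = 1.6e-10), the latter at -0.43 and not called with limma on log2(TPM + 1). Day 9 lay -9.84 ± 0.07 on the log2 scale from MEF, the largest difference of any member. Itga11 was higher in ESC than at day 9 (log2 fold change 7.40 ± 0.08 SE, edgeR adjusted p = 2.1e-17) and reached 18.5% of its MEF level there.

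Itga1, which binds type IV collagen of basement membranes, was at 32.7 and 34.3 CPM in the MEF libraries, 8.75 and 10.9 at day 3, 2.18 and 2.39 at day 6, 1.09 and 1.14 at day 9, with 3.80 and 4.25 in ESC. Each induced group was below the one before it, and ESC lay between day 3 and day 6. Its fall at day 3 (log2 fold change -1.77 ± 0.10 SE, edgeR adjusted p = 1.1e-09) and at day 6 (-2.10 ± 0.13) was called, and the call from day 6 to day 9 (-1.03 ± 0.19) was lost without day 6 replicate 2, at -0.96. With limma on log2(TPM + 1), neither the day 6 call (-0.60) nor the day 9 call (-0.13) was made, and with log2(TPM + 0.1) the day 9 call was not made (-0.62). ESC was below MEF (-3.05 ± 0.11). Itga10, of cartilage, was highest in ESC at 4.98 and 5.02 CPM, and Itga2, of platelets and epithelia, stayed at or under 1.01 CPM in every library.

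Receptors for the RGD sequence of fibronectin and vitronectin also fell. Itga5, the fibronectin receptor subunit (chr15:103344286-103366763, minus strand), was at 429.8 and 427 CPM in the MEF libraries, 78.7 and 73.0 at day 3, 21.0 and 22.6 at day 6, 16.3 and 16.1 at day 9, with 224 and 232 in ESC. MEF was highest and the induced groups descended, whereas ESC was second to MEF. Itga5 fell at day 3 (log2 fold change -2.50 ± 0.04 SE, edgeR adjusted p = 1.5e-15) and at day 6 (-1.80 ± 0.05), and ESC was 14.1-fold above day 9 (log2 fold change 3.82 ± 0.05 SE, edgeR adjusted p = 1.8e-16). At 53.2% of MEF, ESC was not called against MEF (-0.91 ± 0.04).

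Itgav, the common α subunit of the vitronectin receptors, was at 315 and 319 CPM in the MEF libraries, 257 and 270.1 at day 3, 118 and 109 at day 6, 73.6 and 76.5 at day 9, with 86.6 and 84.5 in ESC. Day 3 lay below MEF but under the fold threshold, and day 9 and ESC were lowest and close together. The fall came from day 3 to day 6 (log2 fold change -1.21 ± 0.04 SE, edgeR adjusted p = 7.9e-12). Itga8, a nephronectin receptor subunit of mesenchyme, was at 27.4 and 29.9 CPM in the MEF libraries, 2.93 and 2.28 at day 3, 0.265 and 0.333 at day 6, 0.354 and 0.202 at day 9, with 3.24 and 3.77 in ESC. It fell at day 3 (log2 fold change -3.46 ± 0.14 SE, edgeR adjusted p = 3.4e-11) and at day 6 (-3.12 ± 0.26, but -0.52 and not called with limma on log2(TPM + 1)), and ESC was at 12.2% of MEF. Itga2b, the platelet subunit, was under 20 CPM everywhere and had its highest values in MEF, at 4.99 and 5.12 CPM.

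The subunits Itga4 and Itga9 took different courses. Itga4, which binds fibronectin and VCAM1, was at 23.6 and 22.3 CPM in the MEF libraries, 159 and 163 at day 3, 48.7 and 45.2 at day 6, 20.2 and 19.0 at day 9, with 3.45 and 3.12 in ESC. Day 3 stood several-fold above every other group, and ESC was lowest. Itga4 rose at day 3 (log2 fold change 2.81 ± 0.05 SE, edgeR adjusted p = 6.2e-15), then fell at day 6 (-1.78 ± 0.05) and at day 9 (-1.26 ± 0.06). ESC was below day 9 (-2.57 ± 0.09). With limma on log2(TPM + 1), the calls at day 9 (-0.80) and in ESC with day 9 (-0.72) were lost.

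Itga9, a tenascin receptor subunit, was at 33.2 and 31.5 CPM in the MEF libraries, 6.43 and 7.30 at day 3, 2.82 and 2.57 at day 6, 2.28 and 2.40 at day 9, with 23.2 and 24.2 in ESC. MEF was highest, ESC was second, and the induced groups were low. It fell at day 3 (log2 fold change -2.24 ± 0.08 SE, edgeR adjusted p = 6.7e-12). It was higher in ESC than at day 9 (log2 fold change 3.34 ± 0.10 SE, edgeR adjusted p = 6.8e-13) and was not called in ESC with MEF (-0.45 ± 0.07).

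Itgb1, the common β subunit, was at 1933 and 1936 CPM in the MEF libraries, 950.4 and 966 at day 3, 456 and 453 at day 6, 324 and 336 at day 9, with 773 and 774 in ESC. MEF was highest, the induced groups descended to day 9, and ESC lay between day 6 and day 3. The fall at day 6 was called (log2 fold change -1.08 ± 0.03 SE, edgeR adjusted p = 6.5e-13). The call at day 3 (-1.01 ± 0.03) was at the threshold and was lost with library-size scaling (-0.81), without day 3 replicate 1 (-1.0) and in both limma fits (-0.95). Itgb1 was higher in ESC than at day 9 (log2 fold change 1.23 ± 0.03 SE, edgeR adjusted p = 7.6e-14) and lower than in MEF (-1.32 ± 0.03), the latter lost with library-size scaling at -0.98.

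A transcript of Itgb1 annotated as subject to nonsense-mediated decay took 13.6 and 14.8% of the gene's estimated reads in MEF, 0.4 and 3.3% at day 3, 6.0 and 7.3% at day 6, 7.5 and 6.7% at day 9, with 13.0 and 14.0% in ESC. The protein-coding form held at least 83.3% in every library.

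Itgb3, which pairs with Itgav, was at 81.4 and 82.2 CPM in the MEF libraries, 19.3 and 20.5 at day 3, 4.53 and 3.39 at day 6, 4.66 and 3.86 at day 9, with 25.5 and 25.1 in ESC. It fell at day 3 (log2 fold change -2.04 ± 0.07 SE, edgeR adjusted p = 3.7e-12) and at day 6 (-2.32 ± 0.10), and ESC lay between day 3 and MEF. Itgb5, a vitronectin receptor subunit, was at 354 and 352 CPM in the MEF libraries, 417 and 394 at day 3, 199 and 204 at day 6, 167 and 172 at day 9, with 116 and 123 in ESC. Day 3 and MEF were high, day 6 and day 9 were lower, and ESC was lowest. Its fall at day 6 (-1.01 ± 0.04) was at the threshold and was lost with library-size scaling (-0.94), without day 3 replicate 1 (-0.98) and in both limma fits (-0.90), and ESC with MEF was called (log2 fold change -1.56 ± 0.04 SE, edgeR adjusted p = 5.8e-14).

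The remaining β subunits were scarce. Itgb8, an activator of latent TGF-β, was at 7.91 and 7.55 CPM at day 9 and at 0.206 and 0.294 CPM in ESC, lower than at day 9 (log2 fold change -4.92 ± 0.22 SE, edgeR adjusted p = 8.3e-11). Itgb6, its epithelial relative, reached at most 0.868 CPM, at day 9.

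The summed level of the integrin α subunits was 211 TPM in MEF, 104 at day 3, 57.9 at day 6, 51.0 at day 9, with 106 in ESC. That of the β subunits was 485 TPM in MEF, 437 at day 3, 264 at day 6, 216 at day 9, with 200 in ESC. Both sums were thus lower at day 9 than in MEF, and the α sum was higher in ESC than at day 9. The number of α subunits with a mean of 1 TPM or more was 11 in MEF, 7 at day 3, 5 at day 6, 4 at day 9, with 7 in ESC.

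The 8 integrin genes of leukocytes stayed under 20 CPM in every library. In ESC, all 5 tested ones were called higher than in MEF, as were 25.5% of all genes. Itgb7, which pairs with Itga4 or Itgae, was at 16.1 and 14.8 CPM in ESC and at most 0.836 CPM elsewhere (log2 fold change 4.29 ± 0.20 SE, edgeR adjusted p = 5.1e-11 against MEF). Itgal, the α subunit of the lymphocyte receptor for ICAM1, was at 6.51 and 7.34 CPM in ESC and at most 1.33 CPM elsewhere (2.91 ± 0.24). Both stood clear of every other library. Itgae, Itgam and Itgb2 reached at most 3.72 CPM.

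The 10 leukocyte markers summed to 10.6 to 12.0 CPM in MEF, 198 to 199 at day 3, 375 to 379 at day 6, 299 to 313 at day 9, with 108 to 111 in ESC. From day 3 on and in ESC most of that sum was Laptm5, at 372 CPM at day 6 and 72.6 in ESC. Of the 9 tested markers, 6 were called higher in ESC than in MEF and 3 were not called (median log2 fold change 1.58), where 25.5% of all genes were called higher. Cd68, one of the former, was at 1.71 CPM in MEF and 25.5 in ESC. Against day 9, 8 of the 9 were higher in ESC and 1 was lower, as were 18.6% and 14.3% of all genes. Ptprc, which marks all leukocytes, was at 0.928 CPM in MEF and 0.838 CPM in ESC. Whether leukocytes contribute to the ESC values was not tested. Itgax reached 11 reads and Itgad 2 reads in any library. Itgb2l had no read, and a count of 0 allows up to 3 reads per library by counting error alone.

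Several members were higher in ESC than at day 9 in parallel with fibroblast markers. Of the 14 markers, 13 were called higher in ESC than at day 9, as were 18.6% of all genes. The 14 markers reached 1.11 to 14.5% of their MEF level in ESC, with a median of 9.09%. The 20 members with at least 20 CPM in MEF reached 2.21 to 291% of MEF, with a median of 33.8%. They were taken by their MEF level alone, whether or not they were higher in ESC than at day 9. Of the 20, 16 lay above the highest marker, among them Itga11 (18.5%), Itgb3 (30.9%), Itgb1 (40%), Itga5 (53.2%), Itga9 (73.2%) and Nid2 (121%). The 16 also held Lama5, which was lower in ESC than at day 9. Itga6, Itgav, Itgb5, Lamb1, Lamb2 and Lamc1, also among the 16, were not called in that comparison. Within the range of the markers were Lama4, Itga1, Itga8 and Itga4, of which Lama4 and Itga4 were lower in ESC than at day 9. The part of feeder fibroblasts in the ESC levels was not tested.

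**Figure D5:**
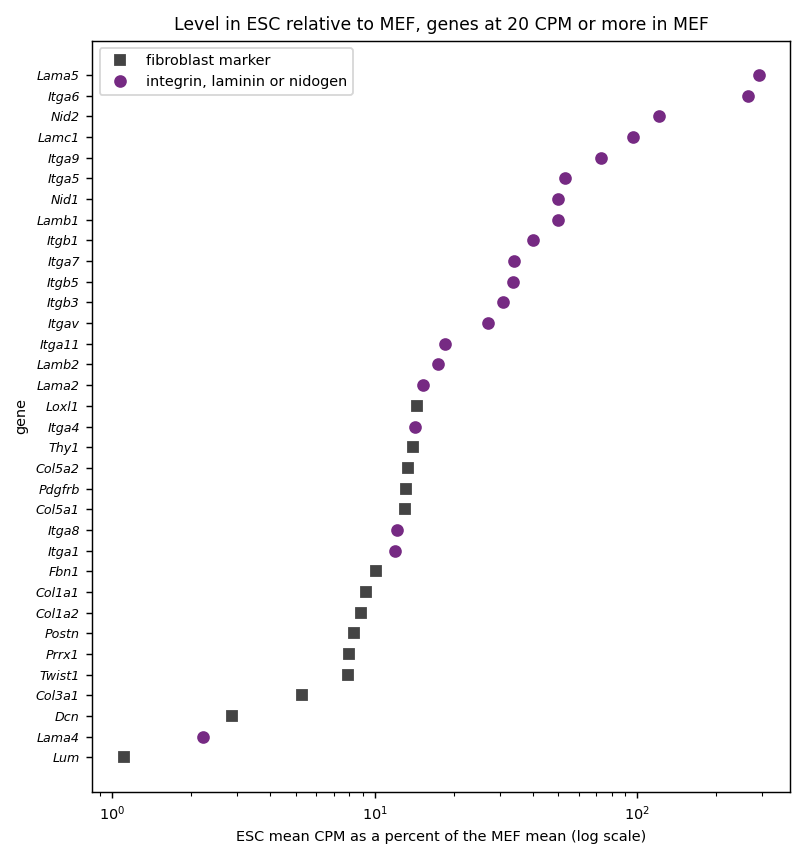
Mean CPM in ESC as a percent of the MEF mean (log axis) for the 20 members (circles) and the 14 fibroblast markers (squares) with at least 20 CPM in MEF. The markers lie between 1.11 and 14.5%, and 16 members lie to their right.

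Genes around the integrins and laminins were counted from lists chosen with earlier results of these data known. Of 22 other basement membrane genes, 3 rose and 14 fell between MEF and day 9, with a median log2 fold change of -1.77 beside 0.19 for all genes, of which 24.1% rose and 19.8% fell. Frem2, a matrix protein of epithelial basement membranes, rose from 2.60 to 117 CPM (5.50 ± 0.08 SE, edgeR adjusted p = 1.4e-16). Smoc2, a calcium-binding matrix protein, fell from 65.0 to 0.197 CPM (-8.33 ± 0.15 SE, edgeR adjusted p = 1.1e-15). In ESC with day 9, 9 of the 22 were called higher and 6 lower, against 18.6% and 14.3% of all genes.

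The ligands of the other integrins fell together. All 13 tested matrix ligands were lower at day 9 than in MEF, as were 19.8% of all genes, with a median log2 fold change of -6.44 beside 0.19. In ESC, 12 of 13 were higher than at day 9, as were 18.6% of all genes. Postn, a matrix protein of fibroblasts that is also among the markers, fell from 4879.6 to 0.948 CPM (-12.30 ± 0.08 SE, edgeR adjusted p = 6.3e-20). Vtn, the vitronectin gene, was not tested for want of reads.

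Of 30 integrin activators and focal adhesion genes, which tie integrins to actin, 2 rose and 17 fell between MEF and day 9, with a median log2 fold change of -1.30, against 24.1% and 19.8% of all genes and a median of 0.19. Parvb, an adaptor of the integrin-linked kinase complex, rose from 12.0 to 84.4 CPM (2.81 ± 0.06 SE, edgeR adjusted p = 1.6e-14). Nedd9, a docking protein of focal adhesions, fell from 106 to 1.01 CPM (-6.69 ± 0.09 SE, edgeR adjusted p = 6.3e-17).

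Among the hemidesmosome and tetraspanin partners, 8 of 9 entries were tested, 2 rose and 3 fell between MEF and day 9, against 24.1% and 19.8% of all genes. Dst, a plakin of hemidesmosomes, has 3 of the 9 entries. Its main entry rose from 251 to 543 CPM, another was called lower although its libraries differed widely (22.8 and 0.151 CPM at day 6), and the third was not tested. Col17a1, the collagen that Itgb4 binds in hemidesmosomes, rose from 0.829 to 59.2 CPM (6.12 ± 0.14 SE, edgeR adjusted p = 1.5e-14) and was at 0.543 CPM at day 3, when Itgb4 was already high. Cd82, a tetraspanin, fell from 28.0 to 0.722 CPM (-5.25 ± 0.14 SE, edgeR adjusted p = 1.5e-13).

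Itgb4 is an epithelial gene, so markers of epithelial cells are given beside it. The 9 markers summed to 53.3 to 56.1 CPM in MEF, 26.5 to 28.0 at day 3, 232 to 236 at day 6, 1089 to 1137 at day 9, with 567 to 575 in ESC. Their sum was lower at day 3 than in MEF, where Itgb4 rose. In that comparison 3 of the 9 were called higher and 4 lower, against 14.6% and 14.5% of all genes. Those higher were Cdh1 (0.370 CPM in MEF and 9.49 at day 3), Epcam (0.196 and 0.593) and Trp63 (0.278 and 0.670), while Krt14 was at 0 reads at day 3. Their part in the Itgb4 level was not tested. The 8 endothelial markers summed to 129.9 to 134 CPM at day 3 and 11.2 to 12.4 CPM in MEF, and Tek alone was at 121 CPM at day 3. Of the 8, 2 were called higher at day 3 (Tek and Cdh5) and 2 lower (Emcn and Erg), against 14.6% and 14.5% of all genes. Their median log2 fold change was -0.63. The 10 extraembryonic endoderm markers, a lineage that makes much Lama1, summed to 13.3 to 15.4 CPM at day 9, when Lama1 was highest, and to 143 to 144 CPM in MEF. Only 4 of the 10 were at 1 CPM or more in MEF and 2 at day 9, and 3 were at 0 reads in each. The part of that lineage in the Lama1 level was not tested.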

How the data were processed

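RNA-seq of 10 libraries was analysed, 2 for each of MEF, day 3, day 6, day 9 and ESC, grouped by sample title. Per the file headers, the authors deposited for each library 1 table of 109617 transcripts, with a TPM and an estimated count each. Salmon 0.8.2 and the build mm10 are named in the submitters' processing notes, and the annotation release is not given in the sources used here. Every table lists the same effective lengths.

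Estimated counts were summed to 45706 genes and rounded. Genes passing filterByExpr (minimum count 10, minimum total 15) were scaled by TMM and fitted by quasi-likelihood in edgeR 4.0.16 under R 4.3.3, with all 10 libraries and a mean per group. The p-values were Benjamini-Hochberg adjusted over 20165 genes, with calls at an adjusted p under 0.05 where the log2 fold change was 1 or more in size. The 6 comparisons share libraries. CPM is computed here, and TPM values are as the authors deposited them, summed per gene. Those sums include short non-coding transcripts, so class shares were also computed as CPM per kilobase, which was chosen after seeing the data.

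The members and lists were chosen with earlier results of these data known. Members called at least once with a group mean of at least 20 CPM were named with all values, except 1 result that is not reported here, and from each other list the called gene with the largest rise and fall at day 9 with MEF, provided its higher group reached 20 CPM. Gene and exon positions are from GENCODE M21 (GRCm38), and promoters from RefSeq (GRCm38.p6). The alternatives were DESeq2 1.42.0, no filter, library-size scaling, limma 3.58.1 on log2 TPM with 1 or 0.1 added, no fold minimum, CPM for shares, a replicate block and leaving out each library. The test was also run on simulated counts with known changes at day 3, after the main fit and without the fold minimum. Depth was 29585876 to 38275024 reads per library, the common coefficient of variation was 3.75%, and no replicate pair agreed within sampling noise.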

Additional observations from a re-analysis of the deposited data

How the results depend on the processing

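Of the 91 calls of the 23 members that met the naming rule, 66 held under all 16 settings tried, and none changed direction. DESeq2, the fit without a filter and the replicate block kept all 91. Library-size scaling kept 85 and moved the median of all genes by 0.205 (day 3), 0.29 (day 9) and 0.34 (ESC) in the comparisons with MEF, and by less than 0.1 in the others. The limma fits kept 68 with log2(TPM + 1), which pulls low genes toward 0, and 83 with log2(TPM + 0.1).

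With limma on log2(TPM + 1), the members called higher and lower were 4 and 8 at day 3 against MEF, 4 and 9 at day 6 against day 3, 1 and 1 for day 9 with day 6, 9 and 4 for ESC with day 9, 6 and 10 for ESC with MEF, while 5 were higher at day 9 than in MEF. All genes gave 6.35% and 6.86%, 2.91% and 4.04%, 1.14% and 0.759%, 8.44% and 5.29%, 13.8% and 11.3%, and 10.2% higher, in the same order. With log2(TPM + 0.1), 4 were higher at day 6 than at day 3, and 2 higher and 2 lower for day 9 with day 6 (all genes 6.18%, 2.84% and 2.08%). Without a fold minimum, 16 were higher at day 3 than in MEF, and 11 higher and 15 lower for day 9 with day 6 (all genes 35.4%, 15.7% and 18.9%). DESeq2 called 3 lower for day 9 with day 6 (all genes 2.23%). Leaving out each library in turn gave 2 to 4 higher and 3 to 5 lower for day 9 with day 6 (all genes 4.13 to 5.02% and 2.25 to 2.60%). The causes of these differences were not tested.

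The replicate block uses the numbers in the titles. Deviations of equally numbered libraries correlated at -0.02 to 0.022 over 10 pairs, so the numbers were not taken to pair libraries. With the block, 8 members were higher and 13 lower for day 3 with MEF, as without it (all genes 14.3% and 14.2%).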
